A study of Canis lupus with 23 samples.

Results

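A set of 9 genes of the inflammatory cytokine network was followed through canine tumor samples: the cytokines IL1A, IL1B, IL18, IL6, TNF and OSM, the IL1 antagonist IL1RN, and the IL1 receptors IL1R1 and IL1R2. They were chosen by gene symbol. In all, 9 of the 15115 genes with 1 symbol on the array, measured by 15 of 42924 probesets, carried these symbols. The tumors were biopsies from client-owned pet dogs with histologically diagnosed cancer, each profiled once on an Affymetrix canine array in a pilot study of whether drug options could be matched to a tumor's expression in time. IL1R1 and TNF were among the genes for which the study listed a matching drug. There were 7 lymphomas, 5 melanomas, 4 sarcomas (2 labelled STS, soft tissue sarcoma, and 2 labelled Sarcoma) and 3 transitional cell carcinomas of the bladder (TCC). A further 4 types had 1 tumor each, namely hepatocellular carcinoma (HCC), nasal carcinoma, hemangiosarcoma and histiocytic sarcoma. No sample carried an agent or a genetic modification, and ages were not given by sample. The study's enrollment included cohorts of golden retrievers with lymphoma and of Scottish terriers with TCC. Breed was not used here, so its part in the differences of these types was not tested. Every biopsy holds the cells of the tumor together with those around it.

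IL1A and IL1B are the activating ligands of IL1R1, which signals to NF-kB through its partner IL1RAP and the adaptor MYD88. IL1RN occupies IL1R1 without activating it, and IL1R2 is a decoy that binds the ligands without signalling. IL18 uses a related receptor and, like IL1B, is cut to its active form by an inflammasome protease. TNF also drives NF-kB, IL6 signals through IL6ST and STAT3, and OSM is a relative of IL6 made mostly by myeloid cells.

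Values are log2(signal + 16), where the signal is the brightness of a probeset after scaling of the array. A signal of 0 therefore stands at 4 on this scale, and the median of all gene values was 7.03. Levels of different genes were not set against each other, because probes differ in brightness. Where a gene had several probesets, their log2 values were averaged. A gene was tested when at least 3 of the 23 arrays lay above that median, which 9972 genes did. This held for 7 of the 9 genes here. IL1B, with 2 such arrays, and OSM, with 1, were not tested. TNF passed with 8 arrays, 5 of them lymphomas. For each replicated type, its mean was set against the average of the 3 other type means, each given equal weight (limma). A gene counted as called when its Benjamini-Hochberg adjusted p was under 0.05 and it changed by at least 1 on the log2 scale. The p-values measure the spread between dogs.

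The labels were checked against marker genes. All 6 T cell markers and all 4 tested B cell markers were higher in lymphoma, all 6 tested melanocyte markers in melanoma, and all 4 urothelial markers in TCC. The summed hepatocyte signal was 104587 in HCC and at most 1626 in the other 22 tumors. Endothelial markers summed to 26229 in hemangiosarcoma, against at most 7302 elsewhere. RNA quality was read from control transcripts probed near both ends, and their 3′ over 5′ log2 ratio, larger in more degraded RNA, was 2.55 to 3.56 in lymphomas, 2.96 to 4.89 in melanomas, 3.08 to 4.41 in sarcomas and 3.23 to 3.84 in TCC.

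**Figure D1:**
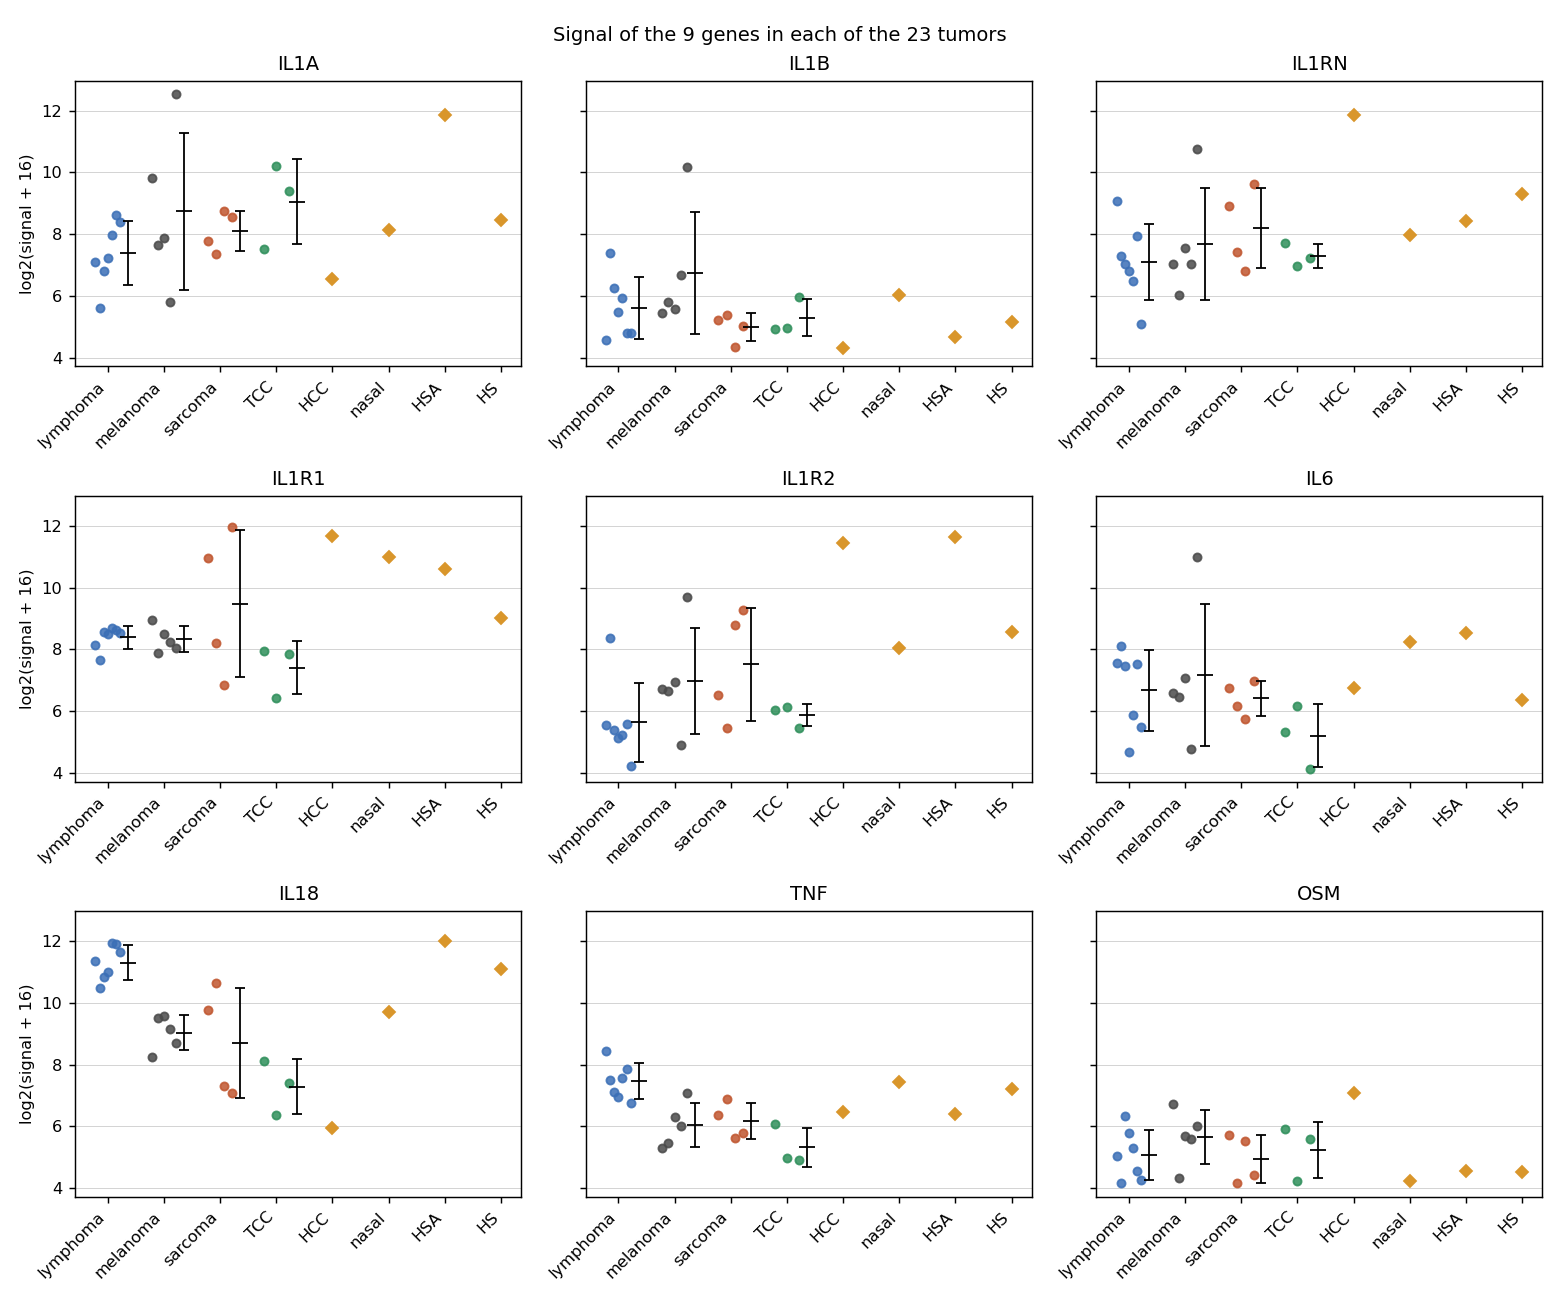
Log2(signal + 16) of each gene in each of the 23 tumors (vertical axis), by tumor type (horizontal axis); points are tumors, crosses with bars are the mean and SD of types with replicates, and diamonds are the types with 1 tumor (HSA, hemangiosarcoma; HS, histiocytic sarcoma). Lymphomas stand highest of the replicated types for IL18 and TNF, and 1 melanoma stands far above the others for IL1A, IL1B and IL6.

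Among the ligands, IL18 separated the types most. Its values in lymphoma were 10.47, 11.34 and 11.92 (lowest, median and highest of 7), in melanoma 8.24, 8.69, 9.14, 9.51 and 9.57, in sarcoma 7.07, 7.30, 9.77 and 10.63, and in TCC 6.35, 7.40 and 8.10. All 7 lymphomas lay above all 5 melanomas and all 3 TCC. Only 1 sarcoma, at 10.63, overlapped with them. The sarcomas fell into a low pair, both labelled STS, and a higher pair, both labelled Sarcoma. Of the single tumors, hemangiosarcoma had the highest IL18 of the series at 12.01 and HCC the lowest at 5.95, with 11.09 in histiocytic sarcoma and 9.69 in nasal carcinoma.

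IL18 was called by the F test over the 4 types (adjusted p = 0.00016, limma), as was TNF (adjusted p = 0.00351), so that 2 of the 7 tested genes differed among types where 35.6% of all tested genes did. In lymphoma IL18 was higher, with a mean of 11.30 ± 0.56 (SD, n = 7) against a mean of 8.34 over the other 3 types, so that the log2 fold change was 2.96 (SE 0.42, adjusted p = 3.54e-05, limma). IL18 and TNF were the 2 of 7 tested genes higher in lymphoma, where 6.95% of all tested genes were higher, and none of the 7 was lower, against 12.1% of all. Between pairs of types, lymphoma exceeded melanoma by 2.27, sarcoma by 2.60 and TCC by 4.02 on the log2 scale (adjusted p = 0.00397, 0.0022 and 7.47e-05, limma). The order of the means was lymphoma, melanoma (9.03 ± 0.56, n = 5), sarcoma (8.70 ± 1.78, n = 4) and TCC (7.28 ± 0.88, n = 3; all SD). The neighbors melanoma and sarcoma (difference 0.34, SE 0.59) and sarcoma and TCC (1.41, SE 0.67, adjusted p = 0.202, limma) did not differ beyond their spread.

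IL18 was also the 1 tested gene lower in TCC, where 4.36% of all tested genes were lower. The mean of 7.28 in TCC stood against 9.68 over the other 3 types, giving a log2 fold change of -2.39 (SE 0.55, adjusted p = 0.00625, limma). The lymphomas weigh in that mean, and TCC was not called below melanoma alone, which exceeded it by 1.75 (adjusted p = 0.0924, limma). Without the TCC with the lowest value the fold change was -1.93 and was not called (adjusted p = 0.0837, limma).

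IL18 had 2 probesets, which ran together (r = 0.96 over 23 tumors). In the brighter one the signal reached 7480 in hemangiosarcoma, and in the dimmer one 2343 in a lymphoma. Macrophages are a main source of IL18. Within types, IL18 had r = 0.71 with the summed signal of 16 macrophage markers (19 tumors, a description). The sum was 13985 to 44269 in lymphoma, 8293 to 28427 in melanoma, 6634 to 50632 in sarcoma and 6688 to 11256 in TCC. It was highest in histiocytic sarcoma, a tumor of this lineage, at 104814 and in hemangiosarcoma at 77177. In lymphoma 3 of the 16 macrophage genes were higher and 3 lower, and in TCC 3 were lower. Sums of T cell markers were 4266 to 62346 in lymphoma against at most 5515 in the other 3 types. For B cell markers they were 560 to 19824 in lymphoma against at most 1560. Hemangiosarcoma, with the highest IL18, had a T cell sum of 5567, and HCC, with the lowest IL18, had the lowest T cell sum at 181. No correlation of IL18 with either lymphocyte sum was computed, so none is given beside that with the macrophage sum. The part of any of these cells in the result was not tested, and in bulk tissue fewer cells of a type and less RNA per cell cannot be told apart.

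TNF, a cytokine of activated macrophages and lymphocytes, followed the same order of types except that sarcoma came before melanoma. Its values in lymphoma were 6.75, 7.49 and 8.45 (lowest, median and highest of 7), in melanoma 5.29, 5.47, 6.02, 6.31 and 7.09, in sarcoma 5.63, 5.78, 6.36 and 6.89, and in TCC 4.90, 4.98 and 6.06. All lymphomas lay above all TCC. Their low end overlapped with 1 melanoma and 1 sarcoma. TNF was higher in lymphoma, with a mean of 7.46 ± 0.58 (SD, n = 7) against 5.84 over the other 3 types, giving a log2 fold change of 1.62 (SE 0.32, adjusted p = 0.000716, limma). The neighbors sarcoma and melanoma, and melanoma and TCC, were not called different. Lymphoma exceeded melanoma by 1.42, sarcoma by 1.29 and TCC by 2.14 (adjusted p = 0.0131, 0.0292 and 0.00196, limma). Together with the 3 for IL18, these were the 6 differences called among 42 tests of 7 genes in 6 pairs of types, where 11.8% of all such tests were called.

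In TCC, TNF had a log2 fold change of -1.24 (SE 0.42) that narrowly missed the threshold (adjusted p = 0.0544, limma). One of the 3 TNF probesets was dim, with a highest signal of 88.4 in HCC and 12 arrays under 16, and it did not run with the others (r = 0.083). Leaving it out gave 2.25 in lymphoma (adjusted p = 0.000145, limma) and -1.65 in TCC, which was then called (adjusted p = 0.0286, limma). TNF within types had r = -0.57 with the 3′ over 5′ ratio and r = 0.63 with the macrophage sum (19 tumors). With the ratio as a covariate TNF in lymphoma was 1.27 (adjusted p = 0.00691, limma) and IL18 2.63 (adjusted p = 0.000464, limma). Nasal carcinoma had 7.45, histiocytic sarcoma 7.22, HCC 6.46 and hemangiosarcoma 6.40 for TNF.

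**Figure D2:**
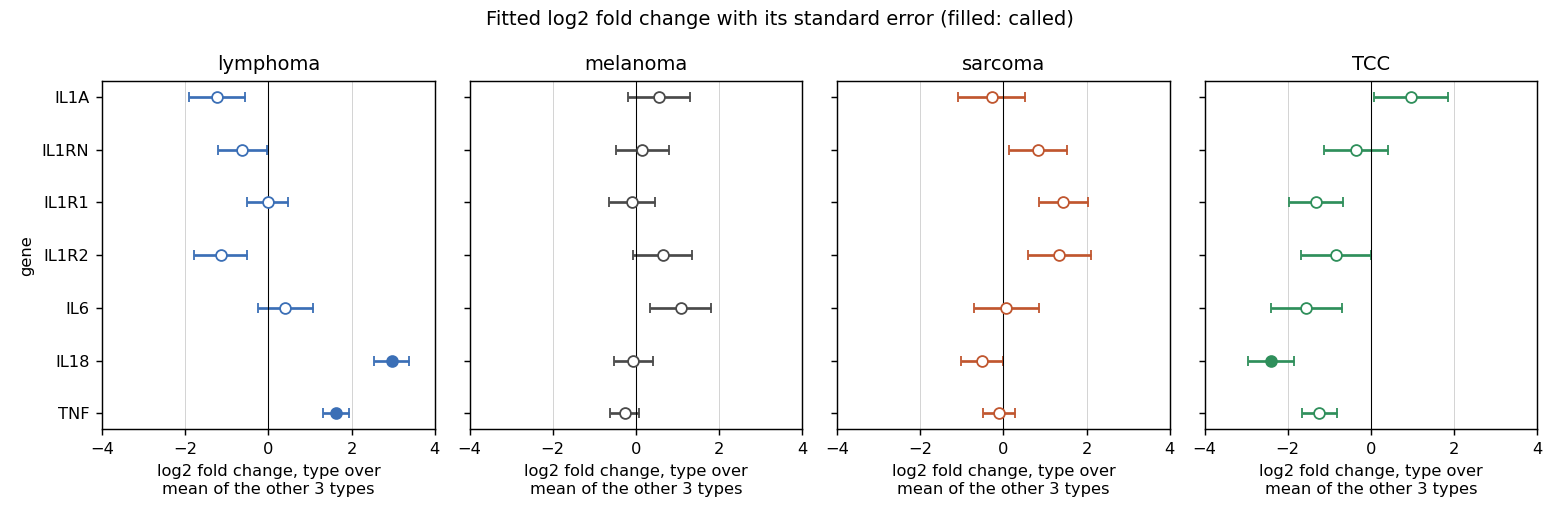
Log2 fold change of the 7 tested genes (rows) in each of the 4 replicated types over the mean of the other 3 types (horizontal axis); points are estimates, bars are 1 standard error, and filled points were called. The filled points are IL18 and TNF in lymphoma, at 2.96 and 1.62, and IL18 in TCC, at -2.39.

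The IL1 ligands varied between single tumors more than between types. IL1A had 12.54, 9.81, 7.87, 7.66 and 5.81 in the melanomas, so that 1 type held both the highest and the second lowest tumor of the series. In TCC it had 7.53, 9.42 and 10.20, in sarcoma 7.36, 7.78, 8.55 and 8.75, and in lymphoma 5.60, 7.24 and 8.61 (lowest, median and highest). All ranges overlapped, and the means were 9.05 ± 1.38 in TCC (n = 3), 8.74 ± 2.55 in melanoma (n = 5), 8.11 ± 0.65 in sarcoma (n = 4) and 7.39 ± 1.04 in lymphoma (n = 7; all SD). No type was called, the F test gave an adjusted p of 0.378 (limma), and none of the neighbors in that order differed beyond its spread. Hemangiosarcoma, at 11.85, was the second highest tumor, and HCC had 6.56.

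IL1B was near the floor of the array in most tumors. Its averaged value was 4.57 to 7.39 in lymphoma, 4.36 to 5.40 in sarcoma and 4.94 to 5.98 in TCC, and 4 of 5 melanomas lay between 5.45 and 6.69. The remaining melanoma, number 4 by its label, had 10.19. Its signals were 12733 and 7408 in the 2 informative probesets and 0.964 in the third, whose highest signal in any tumor was 92.4 and which did not run with the others (r = -0.14). The next tumor, lymphoma 1, had 7.39. Without the filter, on 15115 genes, IL1B in melanoma had a log2 fold change of 1.45 (SE 0.60, adjusted p = 0.236, limma).

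**Figure D3:**
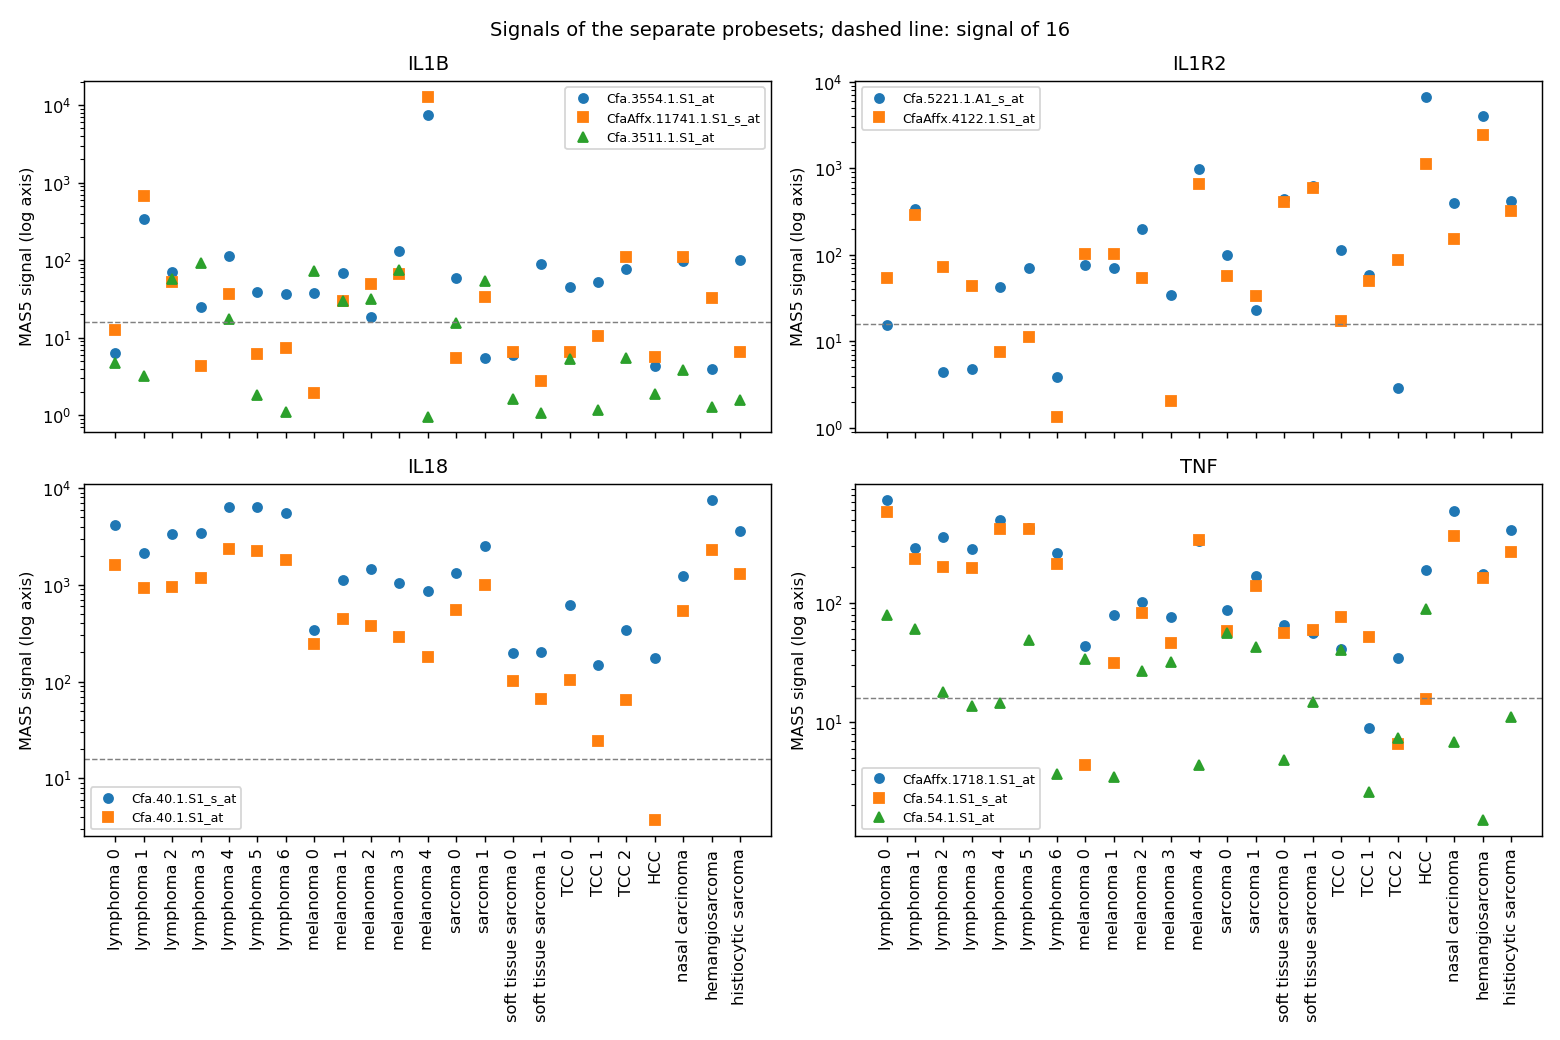
MAS5 signal (vertical, log axis) of each probeset of the 4 genes with more than 1 probeset, in each of the 23 tumors (horizontal axis); symbols are probesets, and the dashed line is the signal of 16 added before taking log2. For IL1B 2 probesets peak in melanoma 4 at 12733 and 7408 while the third does not exceed 92.4, and the 2 IL18 probesets follow each other.

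The antagonist IL1RN was highest in HCC, at 11.87, which lay 4.21 above the mean of the other 22 tumors (7.66 ± 1.28, SD). In humans, hepatocytes can make IL1RN as an acute-phase protein, and the same tumor had the highest value of CRP, another such protein, at 12.54, against at most 6.15 elsewhere. SAA1, a further acute-phase gene, was highest in lymphoma 5 (13.94) and histiocytic sarcoma (13.40) instead. CRP did not pass the filter. HCC was the only liver tumor, so liver tissue and an acute-phase response cannot be told apart here, and the source of its IL1RN was not tested. Among melanomas IL1RN was 6.02, 7.04, 7.04, 7.56 and 10.75, in sarcoma 6.80, 7.43, 8.91 and 9.62, in TCC 6.97, 7.23 and 7.72, and in lymphoma 5.10, 7.03 and 9.06 (lowest, median and highest). The ranges of all 4 types overlapped. The means ran from 8.19 ± 1.30 in sarcoma through 7.69 ± 1.80 in melanoma and 7.31 ± 0.38 in TCC to 7.10 ± 1.23 in lymphoma, no 2 types differed beyond their spread, and the F test gave an adjusted p of 0.616 (limma). Histiocytic sarcoma had 9.31, hemangiosarcoma 8.44 and nasal carcinoma 7.97.

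The signalling receptor IL1R1 was even within lymphoma (7.66, 8.54 and 8.68) and melanoma (7.88, 8.06, 8.25, 8.50 and 8.96) and spread widely in sarcoma (6.83, 8.21, 10.95 and 11.95). TCC had 6.42, 7.85 and 7.96. The sarcomas therefore held both the highest tumor of the series, labelled STS, and the second lowest, labelled STS as well. The mean was 9.49 ± 2.37 in sarcoma (SD, n = 4) against 8.04 over the other 3 types, giving a log2 fold change of 1.44 (SE 0.59) that was not called (adjusted p = 0.147, limma). None of the 7 genes was called in sarcoma, where 6.05% of all tested genes were called, or in melanoma, where 4.32% were. Without the low STS, IL1R1 had 2.33 in sarcoma and was called (adjusted p = 0.0123, limma), as was -1.62 in TCC (adjusted p = 0.0369, limma), which was -1.33 with all tumors (adjusted p = 0.201, limma). The means followed in the order sarcoma, lymphoma (8.39 ± 0.37), melanoma (8.33 ± 0.42) and TCC (7.41 ± 0.86; all SD), and no neighbors in it were called different. The single tumors high for IL1R1 were HCC at 11.67, nasal carcinoma at 11.00 and hemangiosarcoma at 10.59, which lay 2.98, 2.28 and 1.85 above the mean of the other 22, and histiocytic sarcoma had 9.01.

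The decoy receptor IL1R2 spanned more than any of the other 8 genes, from 4.21 in a lymphoma to 11.62 in hemangiosarcoma, and its SD over 23 tumors stood at the 97.6 percentile of the tested genes. HCC had 11.44, so that these 2 tumors lay 4.80 and 4.61 above the mean of the other 22. Sarcomas had 5.45, 6.52, 8.79 and 9.29, the 2 higher ones labelled STS, melanomas 4.91, 6.65, 6.71, 6.95 and 9.68, and TCC 5.47, 6.02 and 6.13. Lymphomas had 4.21, 5.40 and 8.36 (lowest, median and highest), and 6 of the 7 lay at or below 5.60. The means were 7.51 ± 1.83 in sarcoma, 6.98 ± 1.72 in melanoma, 5.87 ± 0.36 in TCC and 5.64 ± 1.29 in lymphoma (SD). The fold change in lymphoma, -1.15 (SE 0.63), was not called (adjusted p = 0.171, limma), but without lymphoma 1, the tumor at 8.36, it was -1.60 (adjusted p = 0.0477, limma) and was called. No neighbors in the order were called different. The 2 IL1R2 probesets ran together (r = 0.84).

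Neutrophils carry much IL1R2, and 9 of 12 neutrophil markers were on the array. Their summed signal was highest in melanoma 0 (70543), lymphoma 1 (26304) and melanoma 4 (15288), of which the last 2 were the high IL1R2 tumors of their types. In lymphoma 1 the granule enzyme MPO had 12.46 and CAMP 10.28. In melanoma 4 MPO had 4.24 and CAMP 5.34, and the sum came mostly from S100A8 (13.06) and S100A9 (12.66). Melanoma 0, with 15.07 and 15.13 for those genes, had only 6.71 for IL1R2 and 5.45 for IL1B. In sarcoma the order was otherwise. The neutrophil sum was 9419 in Sarcoma 0, with 6.52 for IL1R2, and 784 in Sarcoma 1, with 5.45. It was 398 in STS 0 and 845 in STS 1, which had 8.79 and 9.29 for IL1R2. HCC had a sum of 789 and hemangiosarcoma 10564, with 11.44 and 11.62 for IL1R2. Within types, IL1R2 had r = 0.41 with the neutrophil sum, IL6 0.41 and IL1B 0.34 (19 tumors). No neutrophil gene was called in any type, and the part of these cells in the levels was not tested.

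IL6 again had melanoma 4 at the top, at 10.98, followed by hemangiosarcoma at 8.53 and nasal carcinoma at 8.25. The other melanomas had 4.77, 6.46, 6.57 and 7.07, the sarcomas 5.74, 6.18, 6.76 and 6.99, the TCC 4.14, 5.32 and 6.16, and the lymphomas 4.69, 7.48 and 8.12 (lowest, median and highest). Ranges overlapped throughout, and the F test gave an adjusted p of 0.388 (limma). The means were 7.17 ± 2.30 in melanoma, 6.67 ± 1.31 in lymphoma, 6.42 ± 0.56 in sarcoma and 5.21 ± 1.02 in TCC (SD), with no neighbors called different. OSM was dim everywhere. Its single probeset reached a signal of 118 at most, in HCC (7.06), 10 arrays were under 16, and the type means lay between 4.95 in sarcoma and 5.66 in melanoma. Without the filter the F test of OSM gave an adjusted p of 0.682 (limma).

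**Figure D4:**
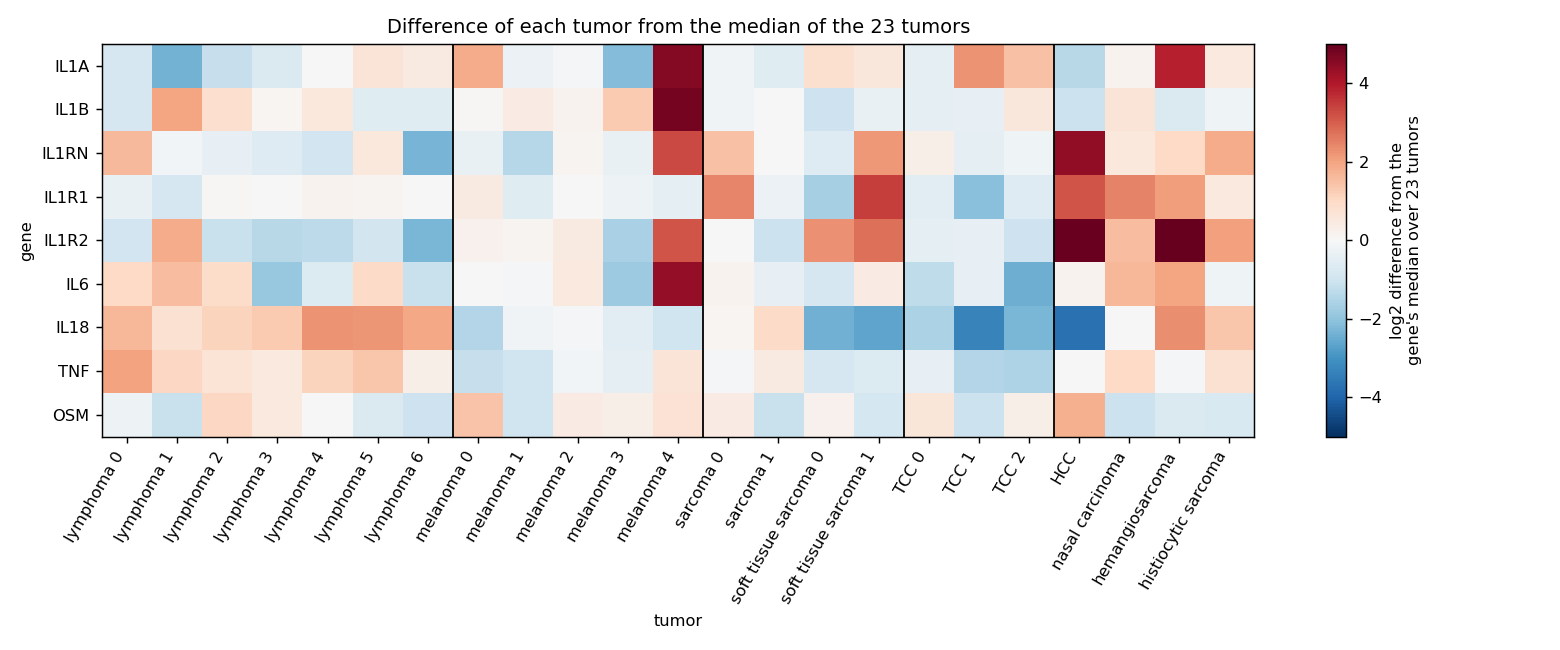
Difference of each tumor from the median of the 23 tumors (color, log2 units) for each gene (rows) in each tumor (columns); black lines part the replicated types and the 4 single tumors. Melanoma 4 is high for IL1A, IL1B, IL1RN, IL1R2 and IL6, HCC for IL1RN, IL1R1 and IL1R2, and all 7 lymphomas lie above the median for IL18 and TNF.

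Read by tumor, 3 samples were most often among the highest 3. Melanoma 4 was among the highest 3 of 23 tumors for 5 of the 9 genes, IL1A, IL1B, IL1RN, IL1R2 and IL6, and the highest for 3. HCC was among the highest 3 for IL1RN, IL1R1, IL1R2 and OSM, and the lowest for IL18 and IL1B. Hemangiosarcoma was among the highest 3 for IL1A, IL1R2, IL6 and IL18. HCC and hemangiosarcoma were each the highest tumor for 2 of the 9 genes. Over all 9972 tested genes, HCC was the highest tumor for 9.21%, the largest share of any tumor, melanoma 4 for 4.49% and hemangiosarcoma for 3.62%. OSM and IL1B were not among the tested genes, and shares for the highest 3 or the lowest were not taken. In melanoma 4, many of the genes that these cytokines switch on were also high. Of 19 such genes tested, 7 had their highest value there, as did 4.49% of all 9972 tested genes. Above their median of the 23 tumors lay 16 of the 19, for which no share of all genes was taken. The tumor was singled out by its high values, so these counts are a description. VCAM1 (8.50, median 11.40) and BCL3 (6.20, median 6.45) lay below their median and ZC3H12A at it (5.72). The 7 highest were CXCL8, a neutrophil attractant (14.42; next tumor 11.06), PTGS2, the prostaglandin-making cyclooxygenase (13.56; next 12.56), the matrix proteases MMP1 (12.12; next 11.77) and MMP3 (11.71; next 8.16), and the NF-kB regulators NFKBIA (13.23; next 12.73), NFKBIZ (10.83; next 10.48) and TNFAIP3 (8.37; next 7.37), which are themselves NF-kB targets. Being 1 dog, this tumor has no replicate, and its 3′ over 5′ ratio of 2.96 was the lowest of the melanomas.

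Whether the genes moved together within types was asked over the 19 tumors of the 4 replicated types, after subtracting each type's mean. Of 21 pairs, 3 passed a two-sided permutation test within types (100000 permutations, Benjamini-Hochberg over the 21 pairs). IL1RN and IL6 had r = 0.75 (permutation p = 0.00399, adjusted p = 0.0312) and rho = 0.71 (permutation p = 0.00102, adjusted p = 0.0107). IL1R2 and IL6 had r = 0.70 (permutation p = 0.00166, adjusted p = 0.0312) and rho = 0.73 (permutation p = 0.00027, adjusted p = 0.00567). IL1RN and TNF had r = 0.68 (permutation p = 0.00445, adjusted p = 0.0312), with a rho of 0.64 that did not pass (permutation p = 0.00835, adjusted p = 0.0585). All 3 rested in part on few tumors. Leaving out the 2 tumors farthest from the median of the first gene gave r = 0.54, 0.47 and 0.43 for them in that order, and without melanoma 4 alone none of the 21 pairs passed, with r = 0.52, 0.54 and 0.55 (permutation test, adjusted p = 0.170, 0.124 and 0.170). IL1R2 and IL18 ran against each other, with r = -0.65 (permutation p = 0.0149, adjusted p = 0.0784), which did not pass.

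Genes with the most similar profile over all 23 tumors differed by member. These r values share the differences between types and are descriptions over 23 tumors. IL18 was nearest to the leukocyte genes PTPRC, which encodes CD45 (r = 0.94), LCP2 (0.94), an adaptor of lymphocyte signalling, and CD53 (0.92). Within types the same 3 genes had r = 0.80, 0.73 and 0.81 over 19 tumors. TNF was nearest to PIK3AP1 (0.86), LY9 (0.86) and BCL2A1 (0.84), all expressed by lymphoid or myeloid cells. IL1RN was nearest to AQP9 (0.80), a water and solute channel of liver and neutrophils, which had its highest value in HCC (13.92; next 10.86). It was followed by PEMT (0.79) and SEL1L (0.77). IL1R1 was nearest to FAM20A (0.76), ACKR2 (0.75) and MAP7D1 (0.73), IL1R2 to XBP1, TM4SF1 and DUSP1 (0.72 each), IL6 to PRKAG1 (0.78), SMNDC1 (0.74) and ELL2 (0.72), and IL1A to TMEM51 (0.70), RALB (0.63) and HCAR2 (0.62). The IL6 values were 0.59, 0.53 and 0.60 without melanoma 4.

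The wider pathway was described with 80 listed genes, of which 65 were on the array and 48 were tested. The F test called 17 of the 48, near the share of all tested genes (35.6%). In lymphoma 7 were higher and 5 lower, where 6.95% and 12.1% of all tested genes were. In melanoma 2 were higher and 3 lower (2.55% and 1.77% of all), in sarcoma 2 higher and 0 lower (4.33% and 1.71%), and in TCC 1 higher and 4 lower (6.82% and 4.36%). The median log2 fold change of the 48 was 0.20 in lymphoma (0.07 over all tested genes), -0.03 in melanoma (-0.05), 0.10 in sarcoma (-0.04) and -0.27 in TCC (-0.08).

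Receptors and signalling parts of the IL1 axis itself were mostly not called. None of the 4 tested genes of IL1 receptor signalling, IL1RAP, MYD88, IRAK3 and IRAK4, was called in any type, nor were the 3 tested genes of the TNF receptor list. Of the inflammasome list, CASP8, a protease that starts cell death and can cleave IL1B, was higher in lymphoma by 2.02 (SE 0.32) and lower in melanoma, with -1.74 (SE 0.36; adjusted p = 0.000117 and 0.00549, limma). All lymphomas (9.56 to 10.74) lay above the other 3 types, as did those of 1.59% of all tested genes, although the highest TCC, at 9.56, all but met the lowest lymphoma. The other tested genes of that list, CASP4, PYCARD and NLRP3, were not called. Of its 7 listed genes, 5 were on the array and 4 were tested.

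Among relatives of IL1, the alarmin IL33 was higher in melanoma and its receptor IL1RL1 in TCC. IL33 had 11.52 to 12.80 in melanoma, 7.10 to 9.11 in lymphoma, 6.53 to 7.83 in TCC and 4.58 to 12.37 in sarcoma, and its log2 fold change in melanoma was 4.26 (SE 0.80, adjusted p = 0.00265, limma). IL1RL1 had 8.84 to 11.62 in TCC, above every tumor of the other 3 types (at most 8.28), a separation that 4.34% of all tested genes showed, with a log2 fold change of 4.48 (SE 0.53, adjusted p = 6.63e-06, limma). IL1RL1 was also called lower in lymphoma (4.43 to 5.30), with -1.90, and in melanoma (4.23 to 5.09), with -2.63, each against a mean that includes TCC. The lymphoma and melanoma values were near the floor of the scale, and the sizes varied with the processing. Apart from leaving out tumors, the other settings gave 3.34 to 5.61 in TCC, -2.40 to -1.37 in lymphoma and -3.96 to -1.68 in melanoma. No setting lost these IL1RL1 calls. Of the IL6 family, JAK1 was higher in lymphoma by 1.04 and the OSM receptor OSMR lower, with -1.59. IL11RA was lower in TCC, with -2.01, but its 3 TCC values (4.28 to 4.31) were near the floor of the scale, so that the size depends on the pseudocount. It was -3.60 to -1.01 over the other settings, -1.01 with a pseudocount of 64 (adjusted p = 0.0619, limma; not called), and the call was also lost without any 1 of the 3 TCC (-2.02 to -2.01; -2.25 to -1.83 without any 1 tumor). These 5 called values had adjusted p between 0.000103 and 0.03 (limma). JAK1 was under the fold change asked for without lymphoma 4 (0.92) and with the 3′ over 5′ ratio as a covariate (0.95).

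Genes that the cytokines induce were called in both directions. In lymphoma the chemokine CCL20 (2.11), the adhesion molecules SELE (1.75) and VCAM1 (1.55) and the survival gene BIRC3 (1.53) were higher, as was the NF-kB subunit REL (1.25). The protease MMP1 (-2.31), the hyaluronan-binding TNFAIP6 (-1.71) and NFKBIZ (-1.27) were lower there. In melanoma CXCL8 was higher by 3.51 (SE 0.92, adjusted p = 0.0292, limma) and VCAM1 lower, with -1.91. The CXCL8 call was lost without melanoma 4, melanoma 2 or TCC 1 (2.46 to 4.09 without 1 tumor), and the VCAM1 call in melanoma without melanoma 0, 1 or 4 (-2.24 to -1.67). In sarcoma TNFAIP6 (3.64) and the adhesion molecule ICAM1 (2.20) were higher. In TCC the same 2 genes were lower, with -3.14 and -2.30, as was the monocyte attractant CCL2, with -2.93. TCC values of TNFAIP6 (4.43 to 5.58) overlapped with lymphoma (4.76 to 7.57), and those of ICAM1 (6.43 to 7.65) lay below every tumor of the other 3 types, which 1.45% of all tested genes did. The CCL2 call was lost without any 1 of the 3 TCC (-3.45 to -2.30). In lymphoma the MMP1 call was lost without TCC 1, TCC 2 or lymphoma 6 (-2.63 to -1.89), and the NFKBIZ call without Sarcoma 0, TCC 1 or lymphoma 1, 3, 4 or 6 (-1.58 to -1.02). With the 3′ over 5′ ratio as a covariate, the calls of VCAM1 (1.11, adjusted p = 0.0693), TNFAIP6 (-1.55, adjusted p = 0.0627) and NFKBIZ (-1.36, adjusted p = 0.0568) in lymphoma and of VCAM1 in melanoma (-1.57, adjusted p = 0.057) were lost (limma). MMP1 in lymphoma was not called with a pseudocount of 64 (-1.61, adjusted p = 0.0731, limma) or with its probeset of highest mean (-2.03, adjusted p = 0.0527, limma). The called values of these genes had adjusted p between 0.00154 and 0.0349 (limma).

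**Figure D5:**
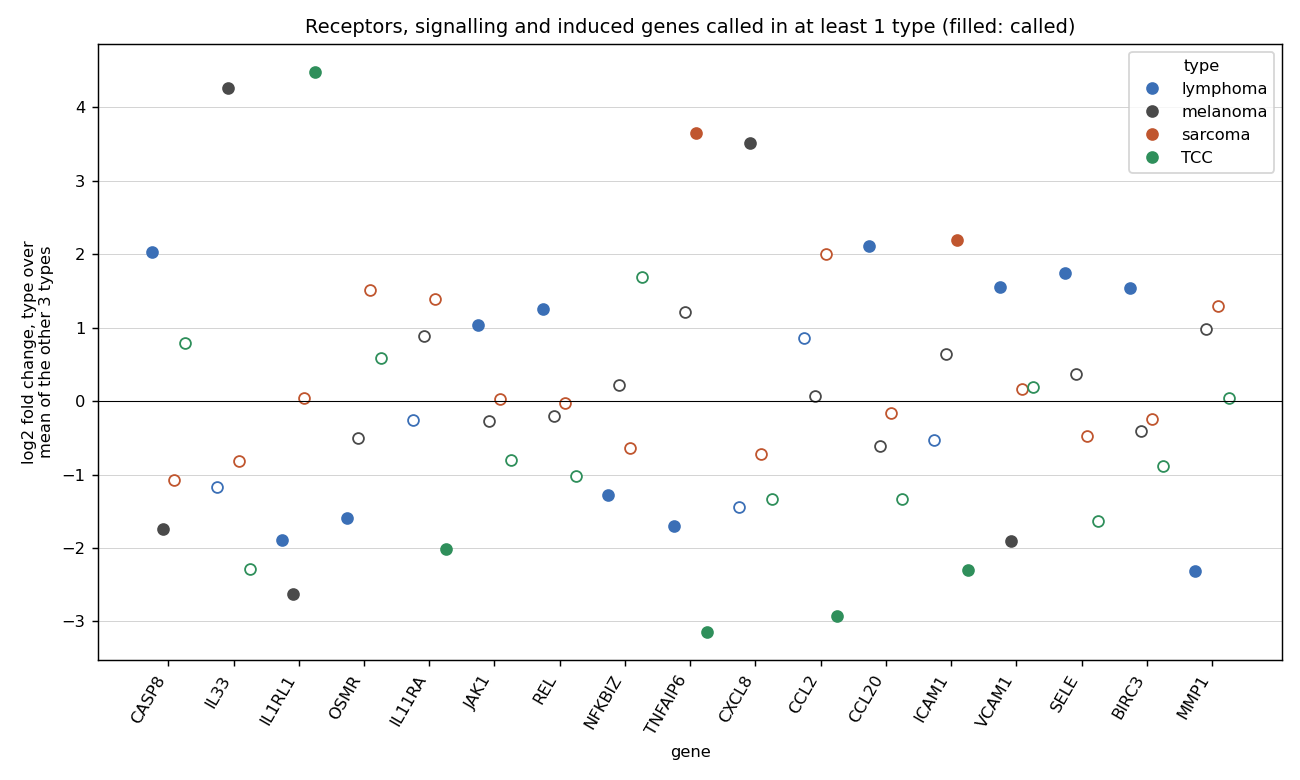
Log2 fold change over the mean of the other 3 types (vertical axis) of the 17 receptor, signalling and induced genes (horizontal axis) called in at least 1 type; colors are types and filled points were called. IL1RL1 in TCC (4.48) and IL33 in melanoma (4.26) lie highest, and TNFAIP6 in TCC (-3.14) lowest.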

How the data were processed

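RNA of 23 tumors was amplified with the NuGEN Ovation Pico WTA system, hybridised to Affymetrix canine arrays, checked in Expression Console and summarised with MAS5 by the authors. The deposited intensity values are linear MAS5 signals, 1 per probeset, with each array scaled to the same trimmed mean (500.1 with 2% left out at each end). No version of Expression Console was given in the sources used here. Median signals were 82.1 to 132 by array, and the number of arrays limits the precision. Normal tissues of the study were not used here.

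Of the 42924 probesets other than controls, 29254 map to 1 symbol by the platform annotation, 439 map to several and were left out, and 13231 are unnamed here. Sequences and coordinates were not used. Symbols were taken as that annotation gives them.

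Log2(signal + 16) values were averaged by gene and modelled on 19 tumors of 4 types, the 2 STS and 2 Sarcoma labels joined, in limma 3.58.1 under R 4.3.3. The functions lmFit, contrasts.fit and eBayes were used, the last with its variance trend on, and 4.77 prior degrees of freedom were estimated. All tests were two-sided, with Benjamini-Hochberg adjustment over 9972 genes in each comparison. The fitting procedure was tested on simulated data. Single tumors were described without a test. Permutations were run in Python 3.11.15 with numpy 2.4.6.

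The 9 genes, the pathway lists and the marker lists were chosen with earlier results of these data known. By rule, all 9 genes were named in every type, then up to 4 called pathway genes in each direction and type and the 3 genes most similar to each member. Other named genes were chosen after their values were seen. Alternatives were quantile normalization, pseudocounts of 1 and 64, all genes unfiltered, each gene's probeset of highest mean, no variance trend, the title number as a replicate block, the 3′ over 5′ ratio as a covariate, separate sarcoma labels, adjusted p alone, and leaving out each tumor. Leaving out dim probesets (under 16 on at least 12 arrays), and melanoma 4 from the correlations, was added after seeing the data.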

Additional observations from a re-analysis of the deposited data

Results flagged for a closer look

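In 27 groups of 4 to 7 tumors tested for a tumor far from the rest of its type, 2 were found. Chance gives about 1 in 20 groups, and 2 of 27 is near that share. IL1B in melanoma 4 was 10.19 against 6.69 in the nearest of the other 4 melanomas, a gap of 0.739 of the whole range. IL1R2 in lymphoma 1 was 8.36 against 5.60 in the nearest of the other 6 lymphomas, a gap of 0.666 of the range. Neutrophil marker sums were 15288 in melanoma 4 and 26304 in lymphoma 1, the third highest and second highest of 23. The highest sum, 70543, was in melanoma 0, which had 5.45 for IL1B and 6.71 for IL1R2. The part of neutrophils in these values was not tested.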

How the results depend on the processing

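IL18 and TNF stayed called higher in lymphoma under every alternative run, with log2 fold changes of 2.63 to 3.18 for IL18 and 1.16 to 2.33 for TNF. In TCC the number of the 7 genes called was 1, and 2 with the probeset of highest mean, with no variance trend, with the 3′ over 5′ ratio, with separate sarcoma labels or with dim probesets left out, TNF being the added gene. Leaving out 1 tumor gave 0 (without TCC 1) to 3 (without STS 0) in TCC and 0 to 1 (without STS 0) in sarcoma. Of the pathway genes, 17 were called by the F test and 9 to 17 without 1 tumor (9 without TCC 0, 10 without TCC 1), 2 in sarcoma and 2 to 5 (4 without STS 1, 5 without Sarcoma 1), and 5 in TCC and 3 to 7 (3 without any 1 of the TCC). With the title number as a replicate block, 10 were called by the F test and 6, not 12, in lymphoma, where OSMR, JAK1, REL, BIRC3, TNFAIP6, NFKBIZ and MMP1 were among those no longer called. These numbers do not pair the tumors: deviations of same-numbered tumors correlated by 0.010 on average (-0.12 to 0.088, 23 pairs), and 5 of 17 tumors correlated best with their own number. The correlated pairs of genes numbered 3, and 0 without melanoma 4.

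Directions that turned were all of values not called. They were IL1R1 in lymphoma (0.017 with pseudocount 1, 0.20 with the 3′ over 5′ ratio, -0.31 to 0.26 without 1 tumor), IL1RN in melanoma (-0.032 with the block, -0.61 to 0.57 without 1 tumor), IL18 in melanoma (0.0023 with pseudocount 1, 0.19 with the ratio, -0.24 to 0.16 without 1 tumor), IL1A in sarcoma (0.12 with the block, -0.54 to 0.034 without 1 tumor), IL6 in sarcoma (-0.12 with pseudocount 64, -0.13 with quantile normalization, -0.28 with the block, -0.13 to 0.38 without 1 tumor) and TNF in sarcoma (0.077 with pseudocount 1, -0.35 to 0.074 without 1 tumor). Without 1 tumor only, IL1A (-0.40 to 1.29), IL1R1 (-0.39 to 0.17) and IL1R2 (-0.034 to 1.16) turned in melanoma and IL18 in sarcoma (-1.16 to 0.032). The causes were not tested. With 1 array per tumor and 3 to 7 tumors per type, a missed threshold does not show that types are alike.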
